A study of Homo sapiens with 8 samples.

Results

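RNA levels of 37 genes of glucose use and the oxygen response are described here in cells labelled as a human leukaemia line, in which NYNRIN was knocked down. The genes encode the glucose transporters, the enzymes of glycolysis, lactate dehydrogenase and the lactate exporters, kinases that regulate sugar flow, targets of the hypoxia-inducible factor HIF-1, and parts of the oxygen sensor. They were taken by gene symbol from the 2 deposited tables, the larger of which lists 35971 genes. KG-1a is an acute myeloid leukaemia line, and the labels call its cells leukaemia stem cells from bone marrow. All 8 libraries are labelled as KG-1a cells that received a lentivirus and were sorted. The controls (4 libraries) carried a control hairpin RNA (shCTL) and have the genotype WT in the labels, and the other 4 carried a hairpin against NYNRIN (shNYNRIN) and have the genotype NYNRIN-knockdown. NYNRIN encodes a protein with a domain of the NYN ribonuclease family. The first deposited table, called set 1, holds replicates 1 and 2 of each group, and the second, called set 2, holds replicates 3 and 4. The sources used here do not give the number of hairpin sequences or clones. In the text below a level is an FPKM value (fragments per kilobase of transcript, scaled to the mapped fragments of the library).

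Glycolysis splits glucose in a preparatory phase that spends ATP and a payoff phase that returns it, and lactate dehydrogenase then converts pyruvate to lactate, which monocarboxylate transporters carry out of the cell with their chaperone basigin (BSG). When oxygen falls, the prolyl hydroxylases EGLN1 and EGLN3 no longer mark HIF-1 alpha (HIF1A) for destruction, and the factor binds hypoxia response elements beside genes of this group. Acute myeloid leukaemia cells are known for a high glycolytic rate, and the marrow niche of leukaemia stem cells is known to be low in oxygen.

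FPKM values of the 7 libraries deposited with decimals had sums from 308998 to 313691, with 12287 to 12557 of the 13068 genes of the first table at 1 FPKM or more. The sources used here give no read totals of single libraries, and levels are printed without a counting interval. The authors' mean normalized counts of set 1 summed to 38529983. Read from the low values of set 2, sequencing was 1.33 and 1.29 times deeper in shNYNRIN replicates 3 and 4 than in shCTL replicate 4. The column of shCTL replicate 3 holds whole numbers, with a median difference of -0.50 FPKM to shCTL replicate 4 among genes of 10 to 30 FPKM. Its values are printed but entered a test only where named, and set 2 rested on 1 control library, shCTL replicate 4, assumed to vary like the others. Going by library names, the numbers 3 and 4 are controls in set 1 and knockdowns in set 2, and the numbers 1 and 2 the other way round. Differences between these numbers and the effect of the hairpin cannot be told apart within a set. CD34, a defining surface marker of KG-1a, stood at 0.681 to 1.79 FPKM in the 7 libraries, CD7, FGFR1 and HOXA9 stood at no more than 0.116, 0.0471 and 0.24 FPKM in set 2, and PTPRC and SPN (CD45 and CD43) stood at 23.2 to 30.7 and 64.8 to 79.8 FPKM. RNA from bulk samples cannot tell apart fewer cells of a type and less RNA per cell. The megakaryocyte marker ITGA2B stood at 518 to 589 FPKM. The 10 erythroid markers had summed levels of 222 to 248 FPKM, with single genes from HBG1 (1.64 to 4.01 FPKM) to KLF1 (53.0 to 72.3 FPKM). Summed erythroid levels were 239 to 248 FPKM (shCTL) and 227 to 245 FPKM (shNYNRIN) in set 1, and 222 FPKM (shCTL replicate 4) and 231 to 235 FPKM (shNYNRIN) in set 2. The 4 of 5 megakaryocyte markers listed summed to 787 to 791 FPKM (shCTL) and 722 to 748 FPKM (shNYNRIN) in set 1, and to 740 FPKM (shCTL replicate 4) and 712 to 715 FPKM (shNYNRIN) in set 2. The 7 of 8 monocyte markers listed summed to 9.97 to 10.3 and 13.1 to 15.4 FPKM in set 1 and to 10.6 and 14.8 to 15.0 FPKM in set 2, mostly from LYZ, with CD14 and CD68 under 0.1 FPKM. Among neutrophil markers (6 of 8 listed) LTF went from 2.40 FPKM (shCTL replicate 4) to 5.85 and 5.37 FPKM (shNYNRIN) in set 2, while MPO and S100A8 were listed at 0 in set 2. T and B cell markers summed to at most 3.51 FPKM. Of the same list of stem and progenitor markers, KIT stood at 19.9 to 34.4 FPKM and MEIS1 at 22.7 to 25.4 FPKM in the 7 libraries. The low CD34, CD7, FGFR1 and HOXA9 beside high ITGA2B and expressed erythroid markers go against the label KG-1a. KIT, MEIS1, PTPRC and SPN of that list were expressed. The line is named here only as labelled. The part of these marker levels in the results below was not tested.

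NYNRIN itself was lower in all 4 shNYNRIN libraries than in any control. In set 1 it stood at 12.2 and 12.5 FPKM with shCTL and at 6.98 and 7.30 FPKM with shNYNRIN, a limma log2 effect of -0.71 with an SE of 0.052 (adjusted p = 0.000984). NYNRIN levels in set 2 were 10 (whole number) and 10.4 FPKM with shCTL and 2.83 and 2.84 FPKM with shNYNRIN, a limma log2 effect of -1.57 with an SE of 0.064 (adjusted p = 0.000119). The knockdown was therefore deeper in set 2, by -0.85 on the log2 scale (limma adjusted p = 0.00132).

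The most abundant of the 37 genes in the 7 libraries was GAPDH, which makes the first energy-rich intermediate of the payoff phase, at 953 to 1136 FPKM. The enolase ENO1 followed at 891 to 1207 FPKM and the pyruvate kinase PKM at 632 to 684 FPKM. The ranges of GAPDH and ENO1 overlapped, and PKM lay below both. Triosephosphate isomerase (TPI1, 305 to 421 FPKM), phosphoglycerate mutase (PGAM1, 182 to 252 FPKM) and phosphoglycerate kinase (PGK1, 125 to 157 FPKM) came next without overlap. Among isozymes, HK1 (74.1 to 87.6 FPKM) lay above HK2 (16.8 to 26.3 FPKM), and the phosphofructokinases PFKL (72.3 to 93.5 FPKM) and PFKP (74.9 to 91.0 FPKM) overlapped each other and lay above PFKM (32.7 to 43.9 FPKM). The neuronal enolase ENO2 reached 59.3 to 96.9 FPKM. The plot of levels by gene shows each of the 8 libraries.

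**Figure D1:**
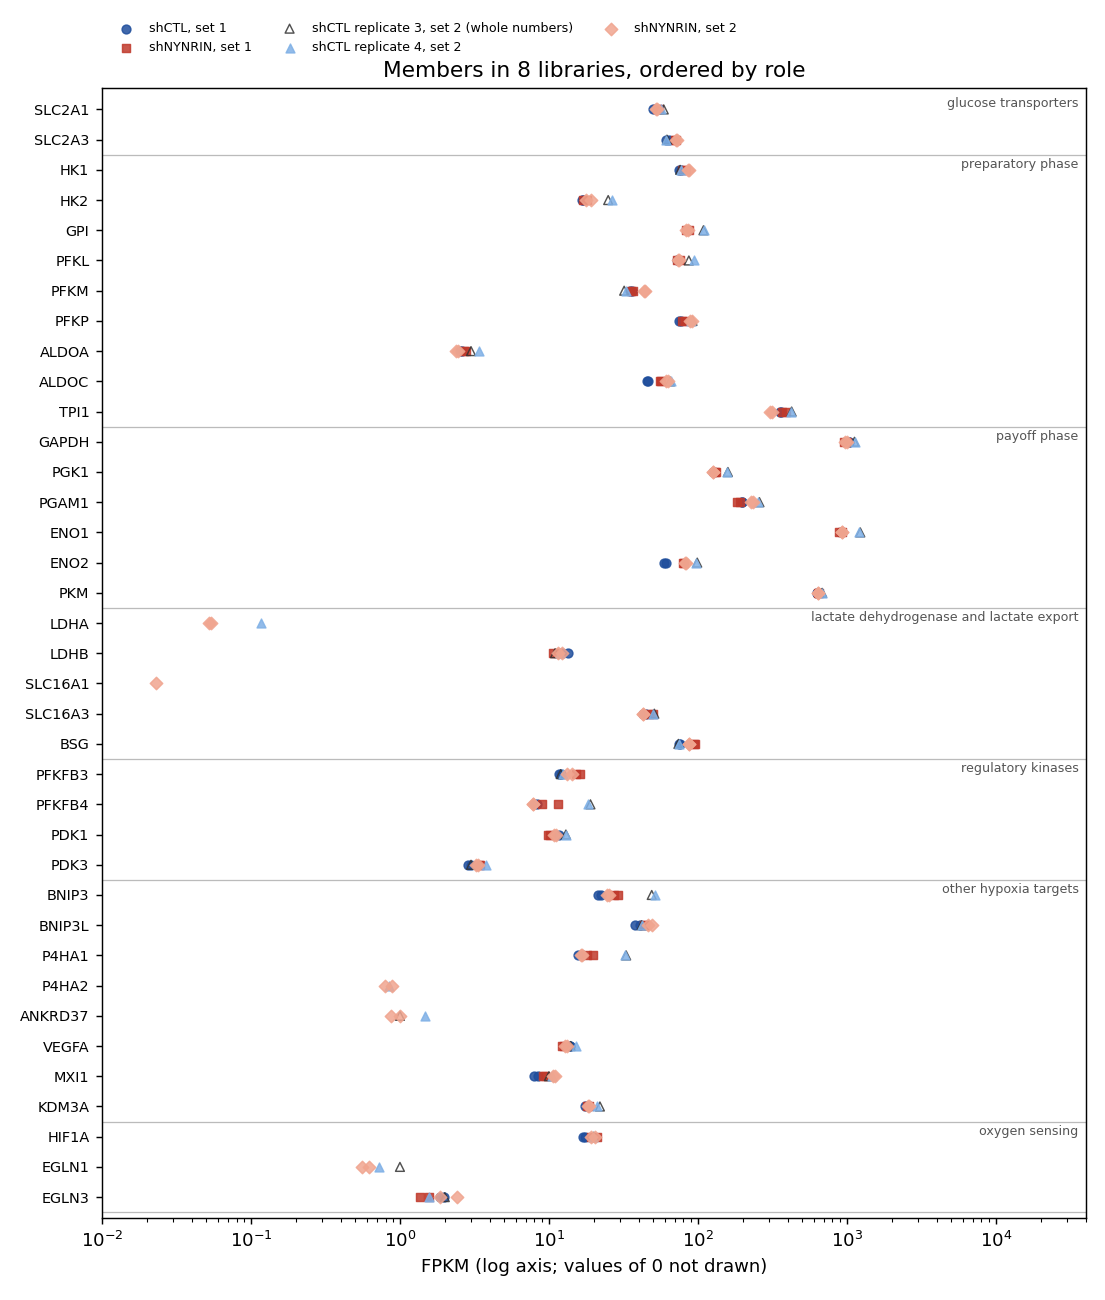
Level of each of the 37 genes in FPKM (log axis) in every library, in rows ordered by role; circles and squares are shCTL and shNYNRIN of set 1, triangles and diamonds those of set 2, and open triangles the whole-number column of shCTL replicate 3. GAPDH, ENO1 and PKM lie between 632 and 1136 FPKM except for the shCTL libraries of set 2, where ENO1 reaches 1207 FPKM and the whole-number column 1231, and LDHA and SLC16A1 lie under 0.2 FPKM or, at 0, are not drawn.

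Some genes that the pathway is known for were low. LDHA, the muscle-type lactate dehydrogenase (chromosome 11, 18394388 to 18408425, plus strand, GENCODE 29 on GRCh38), was listed at 0.116 FPKM in shCTL replicate 4 and at 0.0523 and 0.0538 FPKM in shNYNRIN replicates 3 and 4. The 5 LDHA pseudogenes listed in set 2 summed to 1.51, 0.844 and 1.06 FPKM in the same libraries, and the sources used here do not say how reads were split between them and LDHA. The heart-type LDHB stood at 10.7 to 13.5 FPKM. SLC16A1, the transporter MCT1, was listed at 0 in 3 of the 4 libraries of set 2 and at 0.0230 FPKM in shNYNRIN replicate 4, while SLC16A3, the hypoxia-induced lactate exporter MCT4, stood at 42.7 to 49.6 FPKM. ALDOA, the main aldolase of most tissues, stood at 2.38 to 3.39 FPKM and the brain-type ALDOC at 45.6 to 65.5 FPKM. In GENCODE 29 ALDOA overlaps AC093512.2 on the same strand, listed at 0.639 FPKM in shCTL replicate 4, so its level is uncertain. LDHA, SLC16A1, the prolyl hydroxylase EGLN1 (0.554 to 0.728 FPKM), the collagen hydroxylase subunit P4HA2 (0.798 to 0.884 FPKM) and the HIF target ANKRD37 (0.876 to 1.46 FPKM) were not analysed in set 1, being outside the first table. These genes were not tested, since the tests took only genes with values in both sets. Every gene of the first table had at least 1 FPKM in 1 of its libraries.

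For the other 32 genes the effect of shNYNRIN was read from log2(FPKM + 1) in each set and as the difference between the sets, and calls are an adjusted p under 0.05 over all 12939 genes tested. In set 1, 7 of the 32 genes rose and 0 fell by limma (5 lower at an unadjusted p under 0.05), where 15.9% of all genes passed, 9.33% higher and 6.61% lower. With upper-quartile scaling 6 rose and 3 (LDHB, PGAM1 and VEGFA) fell in set 1. The calls over all genes also leaned lower with that scaling, with 807 higher and 1173 lower. Among genes of at least 10 FPKM, 29 of the 32 genes were tested, and 11 rose and 1 (LDHB) fell in set 1. With that filter 1225 of all genes rose and 878 fell. How many of all genes were tested with it is not given here, so counts with that filter, here and below, carry no share. With the filter of 1 FPKM, 4 rose and 16 fell in set 2, where 20.3% of all genes passed, 11.6% higher and 8.71% lower. The median log2 fold change of the 32 genes was 0.077 in set 1 and -0.17 in set 2, beside 0.026 and 0.018 over all genes tested. The effect differed between the sets for 14 of the 32 genes, where 20.4% of all genes passed. Of the 14, 13 were more negative in set 2 (10% of all genes) and 1, PFKM, more positive (10.3% of all genes). With an effect taken as equal in both sets, 1 gene, BSG, passed, where 0.317% of all genes did (0.193% higher and 0.124% lower).

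BSG and SLC2A3 rose in both sets, BNIP3 and ENO2 rose in set 1 and fell in set 2, 3 genes passed in set 1 alone, 16 in set 2 alone and 9 in neither. Of all genes tested, 2.26% passed in both sets with the same sign, 3.51% with opposite signs, 10.2% in set 1 alone, 14.6% in set 2 alone and 69.5% in neither. Without shNYNRIN replicate 3 the calls of set 2 dropped from 20 to 12 (3 higher, 9 lower), and without shNYNRIN replicate 4 to 14 (3 higher, 11 lower). Over all genes they dropped from 2631 to 1196 (644 higher, 552 lower) and to 1170 (652 higher, 518 lower). With the whole numbers of shCTL replicate 3 (0.5 added) in place of shCTL replicate 4, among genes of at least 10 FPKM, 4 rose and 17 fell in set 2. The plot of effects by gene shows both sets side by side.

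**Figure D2:**
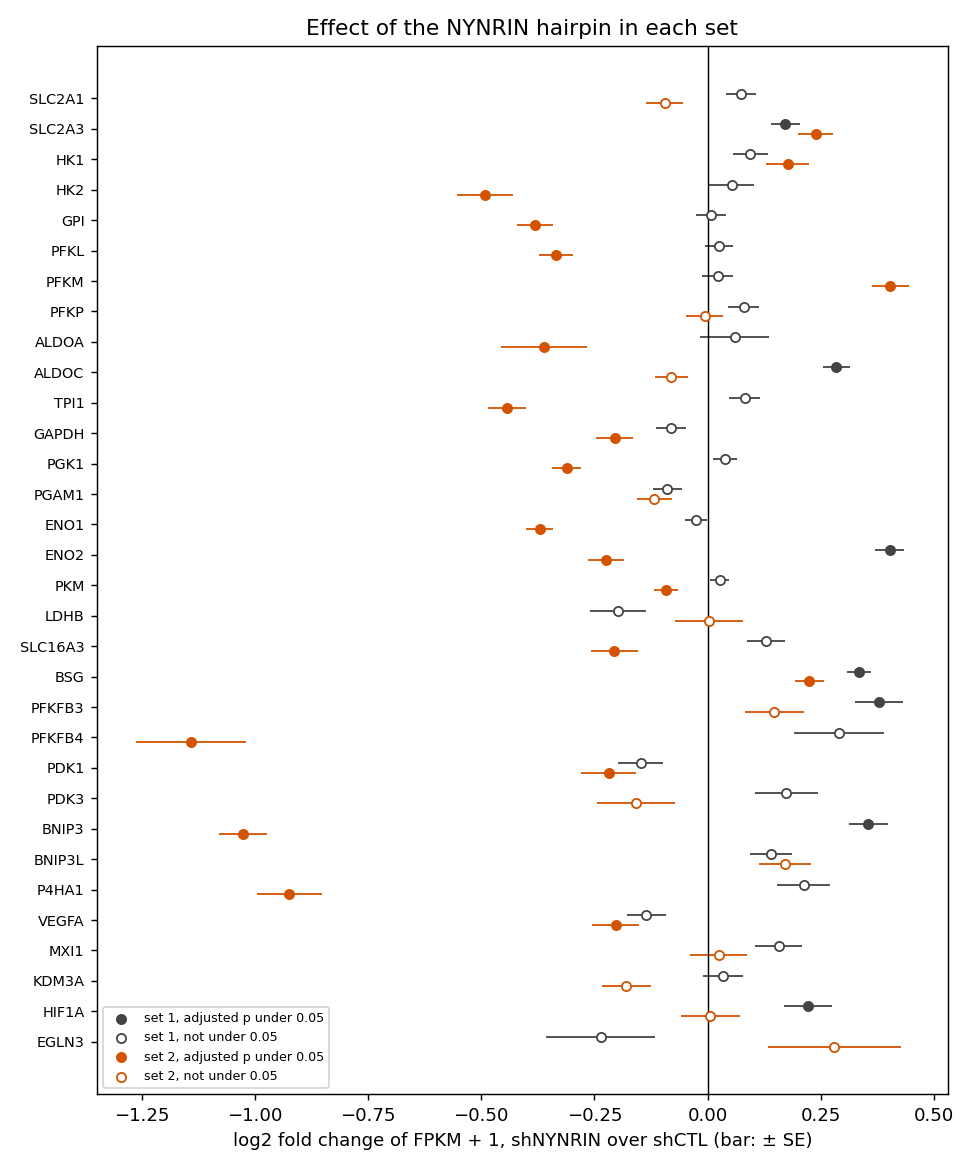
Log2 fold change of FPKM + 1, shNYNRIN over shCTL, for the 32 tested genes (bars, standard error of the limma fit), in grey for set 1 and in orange for set 2, filled where the limma adjusted p is under 0.05. Filled grey points lie to the right of 0 (7 genes), and of the filled orange points 16 lie to the left of 0 and 4 to the right.

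Both glucose transporters of the group were well expressed. SLC2A3, the high-affinity transporter GLUT3, stood at 63.6 and 61.4 FPKM with shCTL and 70.9 and 70.3 FPKM with shNYNRIN in set 1. SLC2A3 levels in set 2 were 62 (whole number) and 60.8 FPKM with shCTL and 70.9 and 72.9 FPKM with shNYNRIN. Each shNYNRIN library was above each shCTL library. SLC2A3 rose by 0.17 in set 1 (SE 0.032, limma adjusted p = 0.0165) and by 0.24 in set 2 (SE 0.039, limma adjusted p = 0.00777). Both calls were lost with a block on the replicate number of the titles. With no mean-variance trend in the fit that of set 1 was lost too (limma adjusted p = 0.0721). The set 1 call was lost without shCTL replicate 1 or 2 (limma adjusted p = 0.0506 and 0.0925), and the single effect over both sets, 0.20, missed the threshold (limma adjusted p = 0.0769). SLC2A1, the basal transporter GLUT1 and a HIF target, stood at 50.1 to 56.1 FPKM in the 7 libraries, with log2 fold changes of 0.074 and -0.095 that did not pass (limma adjusted p = 0.179 and 0.158).

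In the preparatory phase 1 of 9 genes rose in set 1 (all genes 9.33%), and 2 rose and 5 fell in set 2 (all genes 11.6% and 8.71%). HK2, the inducible hexokinase that traps glucose in the cell, stood at 16.8 and 17.0 FPKM with shCTL and 18.1 and 17.0 FPKM with shNYNRIN in set 1. HK2 levels in set 2 were 25 (whole number) and 26.3 FPKM with shCTL and 19.1 and 17.8 FPKM with shNYNRIN. The shCTL libraries of set 2 were thus the high ones, and the shNYNRIN libraries of both sets lay close together. HK2 fell by 0.49 in set 2 (SE 0.062, limma adjusted p = 0.00309), against 0.053 in set 1 (limma adjusted p = 0.512). Its effect differed between the sets by -0.54 (limma adjusted p = 0.00542). The housekeeping hexokinase HK1 went the other way in set 2, from 76 (whole number) and 76.9 FPKM to 87.6 and 86.5 FPKM (0.18, limma adjusted p = 0.0427). The HK1 call was lost without shCTL replicate 1 or 2 (limma adjusted p = 0.0581 each) and without shNYNRIN replicate 3 or 4 (limma adjusted p = 0.151 and 0.122).

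GPI, which turns glucose 6-phosphate into fructose 6-phosphate, stood at 86.0 and 84.7 FPKM with shCTL and 87.7 and 83.8 FPKM with shNYNRIN in set 1. GPI levels in set 2 were 109 (whole number) and 110.5 FPKM with shCTL and 85.9 and 83.4 FPKM with shNYNRIN. GPI fell by 0.38 in set 2 (limma adjusted p = 0.00170) and had an effect of 0.0073 in set 1 (limma adjusted p = 0.906). Phosphofructokinase commits sugar to glycolysis, and its isozymes went in different directions. PFKL, the liver type, stood at 87 (whole number) and 93.5 FPKM with shCTL and at 74.2 and 73.6 FPKM with shNYNRIN in set 2, a fall by 0.34 on the log2 scale (limma adjusted p = 0.00205). PFKM, the muscle type, stood at 32 (whole number) and 32.7 FPKM with shCTL and at 43.9 and 43.4 FPKM with shNYNRIN, a rise by 0.40 (SE 0.041, limma adjusted p = 0.00148). In set 1 PFKL stood at 72.3 and 73.0 against 75.6 and 72.5 FPKM and PFKM at 34.8 and 35.9 against 35.4 and 36.4 FPKM, and the groups overlapped for both genes. The effects differed between sets by -0.39 for GPI, -0.36 for PFKL and 0.38 for PFKM (limma adjusted p = 0.00404, 0.00393 and 0.00451). PFKP, the platelet type, was at 90.3 FPKM in shCTL replicate 4 of set 2 and between 88.8 and 91.0 FPKM with shNYNRIN (-0.0064, limma adjusted p = 0.935).

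The aldolases cleave fructose 1,6-bisphosphate. ALDOC stood at 46.3 and 45.6 FPKM with shCTL and at 56.7 and 55.7 FPKM with shNYNRIN in set 1, a rise by 0.28 (SE 0.030, limma adjusted p = 0.00336). ALDOC levels in set 2 were 65 (whole number) and 65.5 FPKM with shCTL and 61.3 and 62.6 FPKM with shNYNRIN (-0.081, limma adjusted p = 0.174). The groups did not overlap in either set but stood in opposite order, and the effects differed by -0.36 (limma adjusted p = 0.00339). ALDOA fell by 0.36 in set 2 (limma adjusted p = 0.0385), from 3.39 to 2.47 and 2.38 FPKM. That call was lost without shCTL replicate 1 or 2 (limma adjusted p = 0.0639 and 0.0644) or shNYNRIN replicate 3 or 4 (limma adjusted p = 0.114 and 0.144). TPI1, which interconverts the triose phosphates, stood at 355 and 359.6 FPKM with shCTL and 389.7 and 367 FPKM with shNYNRIN in set 1 (0.082, limma adjusted p = 0.152). TPI1 levels in set 2 were 426 (whole number) and 421 FPKM with shCTL and 314 and 305 FPKM with shNYNRIN, a fall by 0.44 (SE 0.042, limma adjusted p = 0.00116). For TPI1 the shCTL libraries of set 2 were the highest and the shNYNRIN libraries of set 2 the lowest of the 8, and the effects differed by -0.53 (limma adjusted p = 0.00163). Its 3 listed pseudogenes summed to 10.99, 8.48 and 6.80 FPKM in shCTL replicate 4 and shNYNRIN replicates 3 and 4.

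In the payoff phase 1 of 6 genes rose in set 1 (all genes 9.33%), and 5 of 6 fell in set 2 (all genes 8.71%). ENO1, which makes phosphoenolpyruvate (chromosome 1, 8861000 to 8879250, minus strand), stood at 918 and 929 FPKM with shCTL and 922 and 891 FPKM with shNYNRIN in set 1. ENO1 levels in set 2 were 1231 (whole number) and 1207 FPKM with shCTL and 934 and 933 FPKM with shNYNRIN. The shCTL libraries of set 2 stood alone at the top, and the other 6 ran from 891 to 934 FPKM. ENO1 fell by 0.37 in set 2 (SE 0.030, limma adjusted p = 0.000775), and the effects differed by -0.34 (limma adjusted p = 0.00207). ENO2, a HIF target in other cells, stood at 61.4 and 59.3 FPKM with shCTL and 81.3 and 78.9 FPKM with shNYNRIN in set 1, a rise by 0.40 (SE 0.032, limma adjusted p = 0.00141). ENO2 levels in set 2 were 99 (whole number) and 96.9 FPKM with shCTL and 82.1 and 83.5 FPKM with shNYNRIN, a fall by 0.22 (SE 0.039, limma adjusted p = 0.00974). The fall of ENO2 was lost without shNYNRIN replicate 3 (limma adjusted p = 0.0565). Levels with shNYNRIN were close to each other in the 2 tables, while those with shCTL lay below them in set 1 and above them in set 2. The ENO2 effects differed by -0.63 (limma adjusted p = 0.000781).

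PGK1, which makes the first ATP of the payoff phase, stood at 129 and 126 FPKM with shCTL and 129.8 and 132 FPKM with shNYNRIN in set 1. PGK1 levels in set 2 were 159 (whole number) and 157 FPKM with shCTL and 125 and 127 FPKM with shNYNRIN. It fell by 0.31 in set 2 (limma adjusted p = 0.00156), and the effects differed by -0.35 (limma adjusted p = 0.00254). GAPDH fell by 0.21 in set 2 (limma adjusted p = 0.0159), from 1125 (whole number) and 1136 FPKM to 965 and 1006 FPKM. In set 1 it stood at 1032 and 1040.2 FPKM with shCTL and at 1007 and 953 FPKM with shNYNRIN (-0.080, limma adjusted p = 0.151). The GAPDH call was lost without shNYNRIN replicate 3 (limma adjusted p = 0.0780), and 23 listed GAPDH pseudogenes summed to 5.69 FPKM in shCTL replicate 4. PKM, which makes pyruvate, fell by 0.091 in set 2 (limma adjusted p = 0.0483), from 683 (whole number) and 684 FPKM to 641 and 643 FPKM, with a difference of -0.12 between the sets (limma adjusted p = 0.0481). Both PKM calls were lost without shCTL replicate 1 or 2 or shNYNRIN replicate 3 or 4, the highest limma adjusted p being 0.186 in set 2 and 0.155 for the difference, and that of the difference also without shNYNRIN replicate 1 (limma adjusted p = 0.0723). PGAM1 was lower with shNYNRIN in each set, at 191 and 182 against 199 and 198 FPKM and at 235 and 229 against 259 (whole number) and 252 FPKM. Its log2 fold changes of -0.088 and -0.12 did not pass (limma adjusted p = 0.105 and 0.0762).

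At the lactate step BSG rose in both sets. BSG (chromosome 19, 571277 to 583493, plus strand), the chaperone that takes MCT1 and MCT4 to the cell surface, stood at 75.6 and 75.2 FPKM with shCTL and 94.8 and 96.0 FPKM with shNYNRIN in set 1. BSG levels in set 2 were 74 (whole number) and 74.7 FPKM with shCTL and 87.6 and 87.4 FPKM with shNYNRIN. All 4 shCTL columns lay between 74 and 75.6 and all 4 shNYNRIN libraries at 87.4 FPKM or above. BSG rose by 0.33 in set 1 (SE 0.026, limma adjusted p = 0.00127) and by 0.23 in set 2 (SE 0.032, limma adjusted p = 0.00464), and the difference of -0.11 did not pass (limma adjusted p = 0.110). Its set 2 call was lost with a block on the replicate number of the titles. The single effect over both sets was 0.29 (limma adjusted p = 0.0479). Without any of shCTL replicates 1 and 2 and shNYNRIN replicates 1 to 4 that single effect stayed between 0.28 and 0.30 and did not pass (limma adjusted p = 0.152 to 0.175). SLC16A3 stood at 42.8 and 45.1 FPKM with shCTL and 49.6 and 46.7 FPKM with shNYNRIN in set 1 (0.13, limma adjusted p = 0.0828). In set 2 SLC16A3 fell by 0.21 (limma adjusted p = 0.0328), from 51 (whole number) and 49.6 FPKM to 43.1 and 42.7 FPKM. That call was lost without shNYNRIN replicate 3 or 4 (limma adjusted p = 0.103 and 0.124). The SLC16A3 effects differed by -0.33 (limma adjusted p = 0.0152, and 0.0567 without shNYNRIN replicate 4). LDHB had log2 fold changes of -0.20 and 0.0026 that did not pass (limma adjusted p = 0.0733 and 0.986).

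Kinases that steer sugar flow gave the largest fall of the group. PFKFB4 (chromosome 3, 48517684 to 48562015, minus strand) makes and breaks fructose 2,6-bisphosphate, the main activator of phosphofructokinase. It stood at 8.35 and 7.94 FPKM with shCTL and 11.5 and 8.998 FPKM with shNYNRIN in set 1 (0.29, SE 0.099, limma adjusted p = 0.0951). PFKFB4 levels in set 2 were 19 (whole number) and 18.4 FPKM with shCTL and 7.80 and 7.82 FPKM with shNYNRIN, a fall by 1.14 (SE 0.12, limma adjusted p = 0.00169). The shCTL libraries of set 2 were the only ones above 11.5 FPKM, and the effects differed by -1.43 (limma adjusted p = 0.00200). PFKFB3, which favours making the same activator, stood at 11.6 and 12.0 FPKM with shCTL and 16.2 and 15.2 FPKM with shNYNRIN in set 1, a rise by 0.38 (SE 0.054, limma adjusted p = 0.00735). In set 2 PFKFB3 stood at 12 (whole number) and 12.4 FPKM with shCTL and at 13.3 and 14.3 FPKM with shNYNRIN (0.15, limma adjusted p = 0.169). The difference of -0.23 did not pass (limma adjusted p = 0.105). PDK1, a HIF target that shuts off pyruvate dehydrogenase, fell by 0.22 in set 2 (limma adjusted p = 0.0468), from 13 (whole number) and 13.0 FPKM to 11.2 and 10.8 FPKM. Its call was lost without shCTL replicate 1 or 2 (limma adjusted p = 0.0589 and 0.0584) or shNYNRIN replicate 3 or 4 (limma adjusted p = 0.116 and 0.174). The related PDK3 stood at 2.85 to 3.78 FPKM, and its effects of 0.17 and -0.16 did not pass (limma adjusted p = 0.141 and 0.252).

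Among the other hypoxia targets, BNIP3 and P4HA1 had the largest changes in set 2. BNIP3 (chromosome 10, 131966455 to 131982013, minus strand), a mitophagy receptor induced by HIF-1, stood at 22.4 and 21.2 FPKM with shCTL and 27.5 and 28.9 FPKM with shNYNRIN in set 1, a rise by 0.36 (SE 0.043, limma adjusted p = 0.00501). BNIP3 levels in set 2 were 49 (whole number) and 51.8 FPKM with shCTL and 25.2 and 24.7 FPKM with shNYNRIN, a fall by 1.03 (SE 0.053, limma adjusted p = 0.000234) or by 51.9% of the level in shCTL replicate 4. Both shCTL columns of set 2 were above the other 6 libraries, whose levels ran from 21.2 to 28.9 FPKM. The BNIP3 effects differed by -1.38 (limma adjusted p = 0.000233), and 23 BNIP3 pseudogenes listed in set 2 summed to 10.5, 7.86 and 7.0003 FPKM in shCTL replicate 4 and shNYNRIN replicates 3 and 4. P4HA1 (chromosome 10, 73007217 to 73096974, minus strand), a catalytic subunit of collagen prolyl hydroxylase, stood at 15.7 and 16.7 FPKM with shCTL and 19.9 and 17.9 FPKM with shNYNRIN in set 1 (0.21, limma adjusted p = 0.0531). P4HA1 levels in set 2 were 33 (whole number) and 32.3 FPKM with shCTL and 16.3 and 16.8 FPKM with shNYNRIN, a fall by 0.92 (SE 0.072, limma adjusted p = 0.000677). As for BNIP3, the shCTL columns of set 2 were the highest, and the P4HA1 effects differed by -1.14 (limma adjusted p = 0.000791).

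Other targets of HIF-1 had smaller effects. VEGFA, the main angiogenic growth factor, fell by 0.20 in set 2 (limma adjusted p = 0.0367), from 14 (whole number) and 15.1 FPKM to 12.8 and 13.2 FPKM. The VEGFA call was lost without shCTL replicate 1 or 2 (limma adjusted p = 0.0659 and 0.0658), without shNYNRIN replicate 3 or 4 (limma adjusted p = 0.154 and 0.0988) and, among genes of at least 10 FPKM, with shCTL replicate 3 raised by 0.5 in place of replicate 4 (limma adjusted p = 0.0798). BNIP3L, the second mitophagy receptor of the BNIP3 family, stood at 41.0 and 37.9 FPKM with shCTL and at 43.2 and 43.9 FPKM with shNYNRIN in set 1. In set 2 BNIP3L stood at 42 (whole number) and 42.1 FPKM with shCTL and at 46.3 and 48.8 FPKM with shNYNRIN. It was above its controls in each set, against BNIP3 in set 2, and its effects of 0.14 and 0.17 did not pass (limma adjusted p = 0.0881 and 0.0801). The MYC antagonist MXI1 (7.92 to 10.9 FPKM) and the histone demethylase KDM3A (17.3 to 21.0 FPKM) did not pass in either set, at 0.16 and 0.025 and at 0.035 and -0.18 (limma adjusted p = 0.0854, 0.830, 0.631 and 0.0597). ANKRD37 stood at 1 (whole number) and 1.46 FPKM with shCTL and at 1.0008 and 0.876 FPKM with shNYNRIN in set 2.

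**Figure D3:**
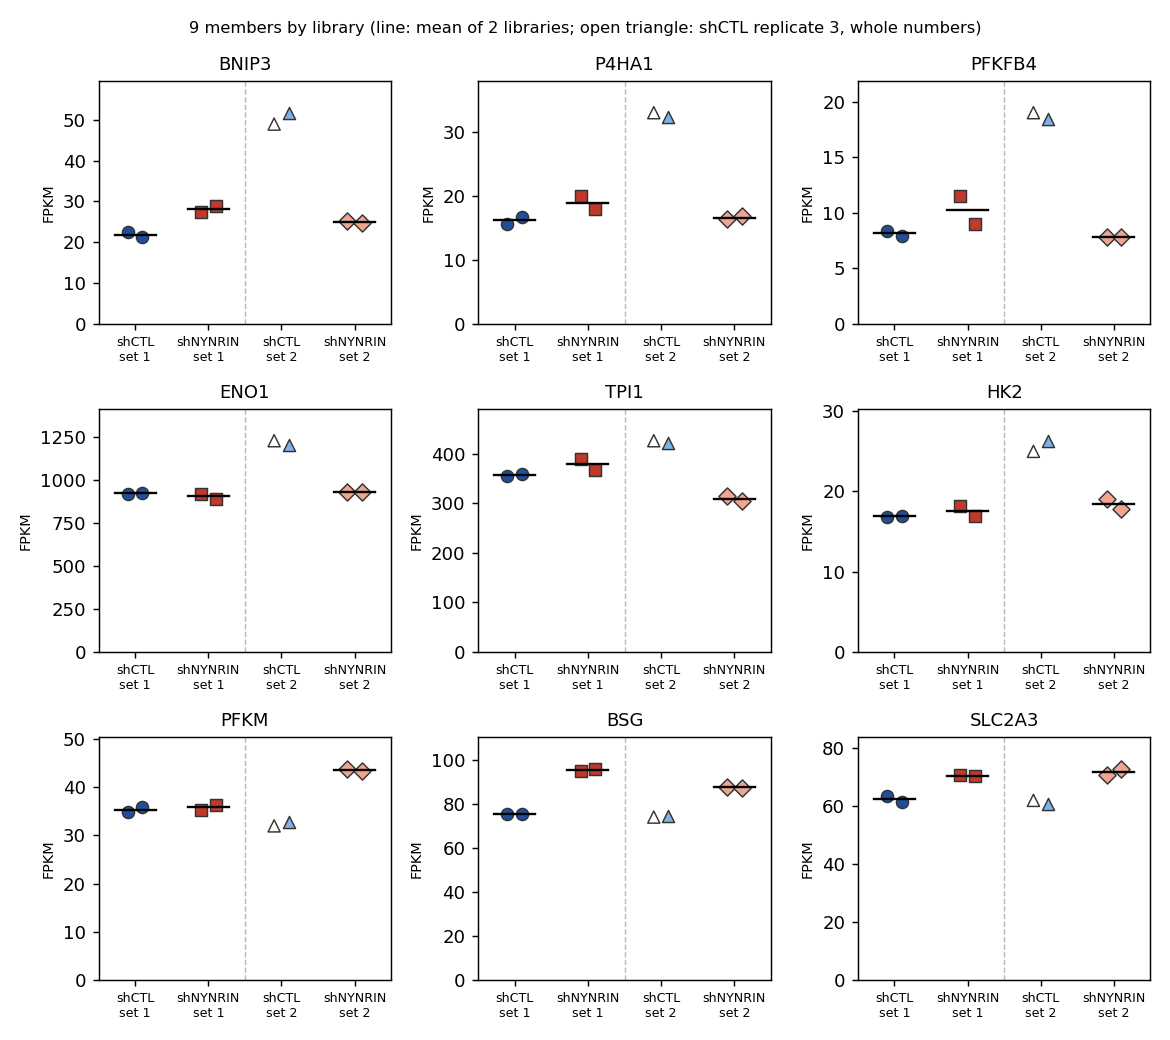
FPKM (from 0, linear axis) of 9 genes in each of the 8 libraries, with the mean of 2 libraries as a line and the whole-number column of shCTL replicate 3 as an open triangle. In BNIP3, P4HA1, PFKFB4, ENO1 and HK2 the shCTL columns of set 2 lie above the other 6 libraries (for BNIP3 at 49 and 51.8, above 21.2 to 28.9 FPKM), PFKM is highest in the shNYNRIN libraries of set 2, and BSG and SLC2A3 are higher with shNYNRIN in both sets.

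The promoters of the 7 genes with the largest falls in set 2, and of PFKM, which rose, are shown because HIF-1 acts through a short core in such regions. Each run is the 250 bases before the RefSeq start of the gene in GRCh38.p14, read along the gene from 5′ to 3′. The searched cores ACGTG and GCGTG and their matches on the other strand, CACGT and CACGC, are in capitals, and CACGTG holds ACGTG on both strands.
PFKFB4, chr3:48556804-48557053, minus strand: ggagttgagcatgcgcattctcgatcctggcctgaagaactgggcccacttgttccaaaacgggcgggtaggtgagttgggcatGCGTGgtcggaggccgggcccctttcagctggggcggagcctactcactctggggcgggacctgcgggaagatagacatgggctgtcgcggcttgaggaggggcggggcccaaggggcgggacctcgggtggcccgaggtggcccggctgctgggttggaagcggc
BNIP3, chr10:131981924-131982173, minus strand: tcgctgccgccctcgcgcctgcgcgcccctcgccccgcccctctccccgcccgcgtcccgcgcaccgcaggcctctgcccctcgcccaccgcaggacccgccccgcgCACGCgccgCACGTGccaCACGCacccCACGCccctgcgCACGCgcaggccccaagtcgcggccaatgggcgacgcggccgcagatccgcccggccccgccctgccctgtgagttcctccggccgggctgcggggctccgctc
P4HA1, chr10:73096867-73097116, minus strand: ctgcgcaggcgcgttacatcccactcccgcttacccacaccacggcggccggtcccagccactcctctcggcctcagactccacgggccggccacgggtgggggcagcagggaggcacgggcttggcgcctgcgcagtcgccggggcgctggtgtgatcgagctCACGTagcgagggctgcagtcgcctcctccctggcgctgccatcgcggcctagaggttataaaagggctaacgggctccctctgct
HK2, chr2:74833877-74834126, plus strand: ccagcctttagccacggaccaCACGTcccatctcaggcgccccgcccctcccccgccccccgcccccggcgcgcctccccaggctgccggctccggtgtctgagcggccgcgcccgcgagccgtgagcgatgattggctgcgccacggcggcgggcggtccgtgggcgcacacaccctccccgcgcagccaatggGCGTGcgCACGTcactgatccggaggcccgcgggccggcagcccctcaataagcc
TPI1, chr12:6867281-6867530, plus strand: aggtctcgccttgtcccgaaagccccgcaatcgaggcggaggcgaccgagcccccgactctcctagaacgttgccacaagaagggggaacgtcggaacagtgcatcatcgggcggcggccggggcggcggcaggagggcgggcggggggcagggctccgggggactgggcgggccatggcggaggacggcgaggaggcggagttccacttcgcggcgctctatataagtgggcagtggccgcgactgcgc
GPI, chr19:34364742-34364991, plus strand: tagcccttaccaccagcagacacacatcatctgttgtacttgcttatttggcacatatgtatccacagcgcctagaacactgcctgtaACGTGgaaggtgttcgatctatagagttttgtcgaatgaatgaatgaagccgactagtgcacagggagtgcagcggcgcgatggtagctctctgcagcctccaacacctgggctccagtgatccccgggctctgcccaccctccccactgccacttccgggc
ENO1, chr1:8878687-8878936, minus strand: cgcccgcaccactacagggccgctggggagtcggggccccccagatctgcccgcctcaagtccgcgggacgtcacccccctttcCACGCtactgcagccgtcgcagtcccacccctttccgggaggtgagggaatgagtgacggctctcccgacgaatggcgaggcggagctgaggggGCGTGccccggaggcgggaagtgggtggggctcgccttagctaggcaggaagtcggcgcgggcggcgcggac
PFKM, chr12:48105623-48105872, plus strand: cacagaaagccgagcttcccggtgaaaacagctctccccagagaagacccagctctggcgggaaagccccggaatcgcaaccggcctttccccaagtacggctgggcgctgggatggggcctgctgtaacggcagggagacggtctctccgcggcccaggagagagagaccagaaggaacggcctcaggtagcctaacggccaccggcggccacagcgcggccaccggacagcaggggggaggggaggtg
BNIP3 had 6 core positions, 104 to 143 bases before the start. HK2 had 3 (48, 55 and 229 bases), ENO1 had 2 (72 and 166 bases), and PFKFB4, P4HA1 and GPI had 1 each (166, 86 and 162 bases). No core was in this window of TPI1, which fell, or of PFKM. RefSeq promoters were matched for 33 of the 37 genes by symbol. A core was found in 19 of the 33 (57.6%), beside 57.9% of the 8994 promoters of tested genes and 43.2% of all 35116 promoters of that length. Among the genes that fell in set 2 it was found in 11 of 15 (73.3%), and among tested genes that did not fall in 5 of 14 (35.7%). VEGFA, which also fell, had no promoter matched. This split was not tested, the genes were chosen as glycolysis and hypoxia genes, and no share was taken over all genes that fell. A match is a run of letters in the reference and no measured binding site.

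Of the oxygen-sensing genes, HIF1A (chromosome 14, 61695513 to 61748259, plus strand) is regulated mainly through the stability of its protein, which RNA levels do not measure. HIF1A stood at 16.9 and 17.4 FPKM with shCTL and at 19.3 and 21.0 FPKM with shNYNRIN in set 1, a rise by 0.22 (SE 0.053, limma adjusted p = 0.0353). HIF1A levels in set 2 were 20 (whole number) and 19.7 FPKM with shCTL and 19.2 and 20.3 FPKM with shNYNRIN (0.0058, limma adjusted p = 0.965), and there the groups overlapped. The set 1 call was lost without shCTL replicate 1 or 2 or shNYNRIN replicate 2, 3 or 4 (limma adjusted p = 0.146, 0.109, 0.0986, 0.0605 and 0.0607), and with quantile normalization or upper-quartile scaling (limma adjusted p = 0.0540 and 0.0632). EGLN3, a HIF-induced prolyl hydroxylase, stood at 1.36 to 2.41 FPKM, with effects of -0.24 and 0.28 that did not pass (limma adjusted p = 0.223 and 0.233). EGLN1 stood at 1 (whole number) and 0.728 FPKM with shCTL and at 0.554 and 0.621 FPKM with shNYNRIN in set 2.

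Levels of the same group are given side by side across the tables, with no test, because the tables may have been normalized separately. The level in shCTL replicate 4 was above both shCTL libraries of set 1 in 26 of the 32 genes (81.2%), beside 41.4% of all genes tested. The median difference was 0.23 on the log2 scale for the 32 genes and 0.0013 for all genes. Both shNYNRIN libraries of set 2 were above both of set 1 in 14 of the 32 genes (43.8%, all genes 29.4%) and below them in 11 (34.4%, all genes 31.5%), with a median difference of 0.0057. The cause of the higher shCTL levels in set 2 was not tested.

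Genes around the pathway came from lists of further hypoxia targets, the HIF system, other glycolysis genes, the pentose phosphate pathway, glycogen use, and pyruvate entry with MYC and its partners. Shares over all genes tested were 9.33% higher and 6.61% lower in set 1, and 11.6% higher and 8.71% lower in set 2. Of 20 further hypoxia targets tested, 2 rose and 1 fell in set 1, and 2 rose and 10 fell in set 2, with medians of 0.042 and -0.27. Fewer of them fell in set 2 without shNYNRIN replicate 3 or 4, where calls over all genes dropped too. The difference between the sets passed for 2 in the positive and 10 in the negative direction (all genes 10.3% and 10%). Fewer passed in the negative direction without shNYNRIN replicate 3 or 4 or shCTL replicate 1. Calls of the difference over all genes dropped in these fits too. INSIG1, which restrains sterol synthesis, stood at 29.1 and 28.1 FPKM with shCTL and at 30.3 and 30.4 FPKM with shNYNRIN in set 1, and at 36 (whole number) and 35.4 against 22.7 and 23.2 FPKM in set 2. It fell by 0.60 in set 2 (limma adjusted p = 0.000579), and the liprin PPFIA4 fell by 0.62 (limma adjusted p = 0.0203, lost without shNYNRIN replicate 3 or 4, highest limma adjusted p = 0.0802). DDIT4, an inhibitor of mTORC1 induced by stress and hypoxia, went against them, at 23.4 and 23.98 against 15.1 and 12.9 FPKM in set 1 and at 18 (whole number) and 21.7 against 27.8 and 27.3 FPKM in set 2. DDIT4 fell by 0.73 in set 1 (limma adjusted p = 0.00218) and rose by 0.33 in set 2 (limma adjusted p = 0.0328). Its rise was lost without shCTL replicate 1 or 2 or shNYNRIN replicate 3 or 4 (highest limma adjusted p = 0.116). The disulfide-forming oxidase ERO1A rose by 0.63 in set 1 (limma adjusted p = 0.00603), with -0.21 in set 2 (limma adjusted p = 0.206).

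**Figure D4:**
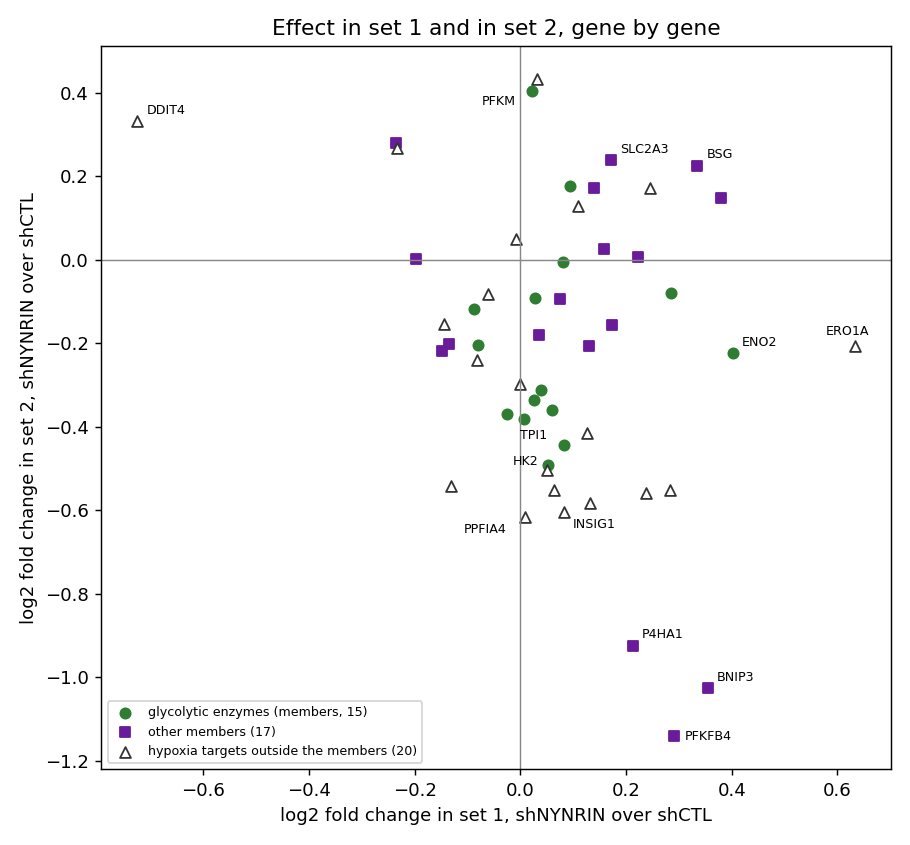
Log2 fold change of shNYNRIN over shCTL in set 1 (horizontal) and set 2 (vertical) for 15 glycolytic enzymes (circles), the 17 other genes of the group that were tested (squares) and 20 further hypoxia targets (triangles). BNIP3, P4HA1 and PFKFB4 lie at the bottom, at -1.03, -0.92 and -1.14 in set 2, and DDIT4 lies to the upper left, at -0.73 and 0.33.

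In the HIF system 2 of 11 genes rose and 2 fell in set 1 (all genes 9.33% and 6.61%). In set 2, 2 rose and 3 fell (all genes 11.6% and 8.71%). CITED2, which competes with HIF-1 for its co-activators, fell by 0.24 in set 1 and rose by 0.39 in set 2 (limma adjusted p = 0.00435 and 0.000916). ARNT2, a partner of HIF alpha subunits, rose by 0.75 in set 2, from 1.31 to 2.88 and 2.87 FPKM (limma adjusted p = 0.00451). It fell by 0.33 in set 1 (limma adjusted p = 0.0453), a call lost without any of the libraries of set 1 or shNYNRIN replicate 3 or 4 (highest limma adjusted p = 0.162). VHL, the ubiquitin ligase subunit that recognises hydroxylated HIF alpha, fell by 0.29 in set 2 (limma adjusted p = 0.0137, up to 0.0710 without shNYNRIN replicate 3 or 4). ELOC, elongin C of the same ligase, had effects of 0.23 in set 1 and -0.29 in set 2 (limma adjusted p = 0.0472 and 0.0391). The ELOC calls were lost without any library of set 1 (highest limma adjusted p = 0.175, set 1) and without shCTL replicate 1 or 2 or shNYNRIN replicate 4 (highest limma adjusted p = 0.118, set 2).

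Of 10 other glycolysis genes 1 rose and 1 fell in set 1, and 2 rose and 0 fell in set 2 by limma (0 lower at an unadjusted p under 0.05). Over all genes 9.33% rose and 6.61% fell in set 1, and 11.6% rose and 8.71% fell in set 2. ADPGK, a hexokinase that uses ADP, rose by 0.37 in set 1 (limma adjusted p = 0.00425), and PFKFB2 rose by 0.38 in set 2 (limma adjusted p = 0.0133, 0.0753 without shNYNRIN replicate 4). The muscle enolase ENO3 fell by 0.28 in set 1 (limma adjusted p = 0.0441) and PDK2 rose by 0.25 in set 2 (limma adjusted p = 0.0395), calls lost in each of 6 and 4 fits with a library left out (highest limma adjusted p = 0.183 and 0.162). In the pentose phosphate pathway, which makes NADPH, 1 of 7 genes fell in set 1 (all genes 6.61%) and 2 rose in set 2 (all genes 11.6%). Counts this small are not read as a result about a pathway. Transketolase (TKT) fell by 0.19 in set 1 and rose by 0.21 in set 2 (limma adjusted p = 0.0154 and 0.0170). The TKT calls were lost without shCTL replicate 2 in set 1 (limma adjusted p = 0.0877) and without shNYNRIN replicate 3 or 4 in set 2 (highest limma adjusted p = 0.0800).

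Among 10 genes of glycogen use 2 rose and 1 fell in set 1 (all genes 9.33% and 6.61%). In set 2, 1 rose and 3 fell (all genes 11.6% and 8.71%). Phosphoglucomutase PGM1 fell by 0.23 in set 1 and 0.31 in set 2 (limma adjusted p = 0.0175 and 0.00851), the first lost without shCTL replicate 1 or shNYNRIN replicate 2 (highest limma adjusted p = 0.0834). The glycogen synthase GYS1 rose by 0.25 in set 1 and fell by 0.29 in set 2 (limma adjusted p = 0.0191 and 0.0160). The GYS1 calls were lost without shCTL replicate 1 or shNYNRIN replicate 1 in set 1 (highest limma adjusted p = 0.0941) and without shNYNRIN replicate 3 or 4 in set 2 (highest limma adjusted p = 0.0764). UGP2, which makes the glycogen precursor UDP-glucose, fell by 0.29 in set 2 (limma adjusted p = 0.00744). Of 8 genes of pyruvate entry and MYC, 3 rose and 0 fell in set 1 and 2 rose and 0 fell in set 2 by limma (1 and 0 lower at an unadjusted p under 0.05). The shares of all genes are those given for glycogen use. The glucose-responsive arrestins TXNIP and ARRDC4, which limit glucose uptake, rose by 0.81 and 0.82 in set 1 (limma adjusted p = 0.000192 and 0.00167), with 0.10 and 0.29 in set 2 (limma adjusted p = 0.0977 and 0.0519). MAX, the partner of MYC, rose by 0.33 in set 2 (limma adjusted p = 0.00137).

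The authors' deposited table of set 1 holds a comparison for 32 of the 37 genes, of which 10 were higher and 4 lower at a q-value under 0.05. The share of all genes of that comparison under the threshold is not given here, so these counts stand without a background. In the authors' deposited table the log2 fold change was 0.31 for BSG, 0.34 for BNIP3, 0.38 for ENO2 and 0.15 for SLC2A3, at q-values of 1.75e-13, 2.45e-07, 4.72e-18 and 0.000504. The genes lower in the authors' deposited table were GAPDH (-0.11), PGAM1 (-0.12), PDK1 (-0.19) and VEGFA (-0.17), which had limma effects of -0.080, -0.088, -0.15 and -0.14 in set 1 that did not pass (adjusted p = 0.151, 0.105, 0.0911 and 0.0767).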

How the data were processed

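RNA of 8 libraries of sorted cells labelled KG-1a was made into cDNA with the SMART-Seq V4 kit for low input and sequenced on Illumina machines, per the labels' protocols. Groups and replicate numbers come from the sample titles. The labels do not say whether replicates are separate cultures, and the spread behind each p-value may therefore be technical. The submitters' processing notes name HTSeq, Cufflinks 2.1.1, Bowtie 0.12.9 and the builds hg38 and mm10 without a role, and the sources used here do not state strand settings.

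No header names a unit, and the values the authors deposited for 7 libraries were taken to be FPKM because of their range. The deposited column of shCTL replicate 3 holds whole numbers, the pattern of truncated FPKM, and is treated as a score. A 0 is written as 0.001 in the first table, which also holds the authors' mean normalized counts per gene, a signal averaged over 4 libraries (baseMean), log2 fold change, p-value and q-value, per the file headers.

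Genes with values in both sets and at least 1 FPKM in at least 2 libraries (12939) were tested. Their log2(FPKM + 1) entered a two-sided limma test (version 3.58.1, R 4.3.3) with a mean-variance trend and Benjamini-Hochberg adjustment over all genes tested. The model for both set effects and the difference had group, table and interaction terms (3 residual degrees of freedom), and that for the single effect had no interaction (4). On that scale, changes of low genes are understated. The fits were also run on simulated data in which a gene had the same spread in every library. Such data cannot test whether shCTL replicate 4 varied like the others. The 37 genes, the lists and the markers were chosen with earlier results of these data known, and the rule for named genes took each gene of the group, NYNRIN, and up to 4 genes of each list that passed, by size. Alternatives changed the pseudocount, filter, scaling, trend, libraries and replicate block. PROM1 and FLT3 were not analysed here. The values of 1 gene of the pentose phosphate list are not reported here.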

Additional observations from a re-analysis of the deposited data

Results flagged for a closer look

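In 14 of the 32 tested genes the effect of shNYNRIN differed between the sets by the interaction term of the limma model (adjusted p under 0.05, set 2 minus set 1, log2 scale). Enzymes of the preparatory phase differed by -0.54 (HK2), -0.39 (GPI), -0.36 (PFKL), 0.38 (PFKM), -0.36 (ALDOC) and -0.53 (TPI1). Enzymes of the payoff phase differed by -0.35 (PGK1), -0.34 (ENO1), -0.63 (ENO2) and -0.12 (PKM), the lactate exporter SLC16A3 by -0.33, and the hypoxia-linked PFKFB4, BNIP3 and P4HA1 by -1.43, -1.38 and -1.14. Set 2 rested on 1 control library in these tests, and the tables, the library numbers and the sets cannot be told apart.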

How the results depend on the processing

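No call of a named gene changed direction under any alternative tried. The balance of calls over all genes did turn in set 1, from 1207 higher and 855 lower. It was 807 and 1173 with upper-quartile scaling and 925 and 965 with quantile normalization. For the single effect it went from 25 and 16 to 10 and 19 with upper-quartile scaling. Calls held under every alternative for 5 of 7 genes in set 1, 10 of 20 in set 2 and 12 of 14 for the difference, and for 0 of 1 for the single effect (BSG).

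Over all genes, set 1 gave 2062 calls, 977 with no trend, 1261 with the first table alone, and 611 to 2088 with a library left out (611 and 626 without shCTL replicates 1 and 2, 1236 and 1248 without shNYNRIN replicates 3 and 4). Set 2 gave 2631 calls and 1170 to 2975 with a library left out (1196 and 1170 without shNYNRIN replicates 3 and 4). The difference gave 2636 calls, 1726 with no trend, and 1429 to 2590 with a library left out (1749 without shCTL replicate 2, 1476 and 1429 without shNYNRIN replicates 3 and 4). The single effect gave 41 calls, 8 with quantile normalization, 0 with no trend (2371 at an unadjusted p under 0.05), 356 with shCTL replicate 3 added as deposited, and among genes of at least 10 FPKM 88, or 486 with shCTL replicate 3 raised by 0.5 and added, or 85 with it in place of replicate 4. With a library left out it gave 0 to 2088 calls by limma: 0 in each of the 6 fits that hold both sets (1803 to 2071 at an unadjusted p under 0.05), and 2088 without shCTL replicate 4, where set 2 has no control and the value is that of set 1.

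Among the described genes, set 1 gave 7 calls (all higher), 12 among genes of at least 10 FPKM (11 higher), or with that same filter 14 with shCTL replicate 3 raised by 0.5 and added (11 higher) and 12 with it in place of replicate 4 (11 higher), and 5 to 8 with a library left out. Set 2 gave 20, 13 with no trend, and 12 to 21 with a library left out. The difference gave 14, and 12 to 14 with a library left out. The single effect gave 1, 0 with quantile normalization, upper-quartile scaling or no trend, 3 with shCTL replicate 3 as deposited, 7 with it raised by 0.5 among genes of at least 10 FPKM (1 with that filter alone), and 0 to 7 with a library left out (7 without shCTL replicate 4, again the value of set 1). With the filter of 10 FPKM, 29 of the described genes were tested. In set 1, 58.5% of all calls were higher, 48.9% with quantile normalization and 40.8% with upper-quartile scaling, and of the calls of the single effect 61.0% and, with upper-quartile scaling, 34.5%.

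Replicate numbers in the titles and library names were not taken to pair the samples, since the labels do not say that a number marks a shared culture. Deviations of same-numbered libraries from their group means correlated at -0.18 to -0.14 (titles) and 0.099 to 0.17 (library names). Those values also hold the shift between the sets and cannot decide on pairing. Within a set the deviations correlated at -0.067 and -0.058 (titles). Library-name numbers match only across sets, so they have no such value. A block on the title number gave 627 calls in set 1, 630 in set 2, 838 for the difference and 0 for the single effect (1305 at an unadjusted p under 0.05), with 10 of the described genes in set 2, 12 for the difference and 0 for the single effect. A block on the library-name number gave 0 for the single effect (2188 at an unadjusted p under 0.05; 0 of the described genes), and with shCTL replicate 3 raised by 0.5 among genes of at least 10 FPKM 144 and 2. Low genes are limited by an unknown read depth, and set 2 by its 1 control library.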
